A study of Mus musculus with 6 samples.

Results

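Scavenger and mannose receptors are the surface proteins with which macrophages bind modified lipoproteins, dying cells, sugars and microbes. Class A and class B scavenger receptors and the mannose receptor take part in the uptake of yeasts, and several members of the family act together with Toll-like receptors or dectin-1. Nuclear receptors, lipid loading and alternative activation are known to change their transcription in macrophages. The group described here was chosen by gene symbol from a fixed list of 9 genes, which comprised Msr1 and Marco (class A), Cd36 and Scarb1 (class B), Olr1 (class E), Scarf1 (class F), Stab1 (class H), Cd163 (class I) and the mannose receptor Mrc1. All 9 were found among the 54532 genes measured, and 8 of them had enough signal to be tested.

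Polyadenylated RNA was sequenced from macrophages of wild type (WT) C57BL/6J mice and of C57BL/6J mice without Grn, the gene of the secreted growth factor progranulin (PGRN KO), with 3 libraries each. Per the labels, peritoneal macrophages were plated at 2000000 cells per well, and both genotypes were challenged for 6 h with live C. albicans (Candida albicans), 1 fungal cell being added per macrophage. In the text of the study these cells are bone marrow-derived and the fungus is added at another ratio, so the labels are used here with both points unresolved. Unchallenged cells were not analysed here, so the comparison is between genotypes in the presence of the fungus. The methods give different sources for the WT and the PGRN KO mice, so genotype and source of the mice cannot be told apart. The sources used here do not give their age. No source states that the replicates came from separate animals, and p-values then measure only the spread between these libraries. In bulk RNA, fewer cells of a type and less RNA per cell cannot be told apart.

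The libraries held 15996786 to 17551619 counted fragments. Values are FPKM, fragments scaled to gene model length and to library size, which allow levels of different genes to be compared. Grn ranged from 323 to 337 FPKM in WT and from 0 to 0.0167 FPKM in PGRN KO. The macrophage genes Cd68, Lyz2, Adgre1 and Csf1r were all measured, and the summed level of the 9 macrophage markers was 11638 to 12581 FPKM in WT and 10452 to 14386 FPKM in PGRN KO. This sum was carried by Lyz2 and Cd14, and of the 9 genes 1 was higher and 2 lower in PGRN KO, with 5 lower without PGRN KO replicate 6. Csf1r, the receptor for macrophage colony-stimulating factor, fell from 32.5 to 24.7 FPKM (limma adjusted p = 0.0178). PGRN KO replicate 6 stood apart. Its Pearson correlation with the other PGRN KO libraries over tested genes was 0.971 and 0.972, whereas these correlated with each other at 0.992. In this library, genes with short models were high and genes with long models were low relative to the mean of the 6 libraries, by a median log2 deviation of 0.29 for genes of up to 1776 bases and -0.29 for genes of at least 6949 bases. The receptor genes that were tested and the list counts are therefore also given without this library. Markers of other cells differed between the genotypes as well. Summed FPKM of B cell markers ranged from 14.0 to 16.3 in WT and from 40.0 to 54.5 in PGRN KO, with all 5 tested genes of 8 higher in PGRN KO. Endothelium also makes Cd36, Mrc1 and Stab1, and the sum of its markers was 9.68 to 12.0 in WT and 18.9 to 25.0 in PGRN KO, with 2 of 3 tested genes of 10 higher and Emcn at 0. Most of this sum was Vwf (means of 4.67 and 10.9 FPKM) and Lyve1 (4.28 and 8.79 FPKM). Pecam1 was at 0.229 and 0.436 FPKM, whereas Kdr was at 0.376 and 0.341 FPKM. Large peritoneal macrophage markers summed to 30.3 to 34.7 FPKM in WT and 50.1 to 60.5 FPKM in PGRN KO, with 3 of 5 tested genes of 10 higher. Most of this rise lay in Cd5l (means of 7.21 and 22.8 FPKM) and Fcna (2.73 and 8.14 FPKM). The defining marker Gata6 did not pass (3.95 and 4.50 FPKM, limma adjusted p = 0.367), and Prg4 was at 14.2 and 12.7 FPKM. Timd4 was below 1 FPKM, and lower in every PGRN KO library than in any WT library. Mast cell markers summed to 3.01 to 3.66 FPKM and 10.6 to 14.6 FPKM. This rise lay mostly in Cma1 and Tpsb2, the 2 tested genes of 8, whereas Kit was at 0.345 and 0.210 FPKM and Ms4a2 at 0. Lower in PGRN KO were the sums for small peritoneal macrophages or monocytes (48.4 to 49.1 and 33.2 to 37.7 FPKM), dendritic cells (27.4 to 34.6 and 15.9 to 19.3 FPKM) and neutrophils (68.3 to 73.4 and 42.7 to 43.9 FPKM), although the dendritic cell gene Cd209a and the neutrophil genes Ly6g and Cxcr2 were at 0. Most of the dendritic cell sum was Ccr7 (means of 28.9 and 16.6 FPKM). Flt3 (0.320 and 0.120 FPKM) and Xcr1 (1.16 and 0.388 FPKM) were also lower in every PGRN KO library than in any WT library. Zbtb46 (0.550 and 0.698 FPKM) and Clec9a (0.0361 and 0.0560 FPKM) had higher means in PGRN KO. Of these dendritic cell genes only Ccr7 was high enough to be tested. Most of the neutrophil sum was S100a8 (50.0 and 23.3 FPKM) and Mmp8, which did not pass (20.2 and 19.5 FPKM, limma adjusted p = 0.717). The part of these cell types in the receptor values was not tested.

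Sequences upstream of 3 receptor genes are shown because these genes, Marco, Cd36 and Olr1, were the ones that passed the test without PGRN KO replicate 6. Each is the 250 bases before a RefSeq start site on GRCm38.p6, written 5′ to 3′ on the strand of the gene, and capitals mark the motif matches. The windows are chr1:120505025-120505274 (minus strand) for Marco, chr5:17835897-17836146 (minus strand) for Cd36 and chr6:129507166-129507415 (minus strand) for Olr1. The Cd36 start site lies 52905 bases inside the gene model used for counting.
Marco: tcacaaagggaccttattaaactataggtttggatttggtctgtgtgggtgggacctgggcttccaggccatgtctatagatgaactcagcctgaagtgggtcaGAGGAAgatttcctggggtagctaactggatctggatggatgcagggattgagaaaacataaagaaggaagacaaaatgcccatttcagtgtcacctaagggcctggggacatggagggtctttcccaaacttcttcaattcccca
Cd36: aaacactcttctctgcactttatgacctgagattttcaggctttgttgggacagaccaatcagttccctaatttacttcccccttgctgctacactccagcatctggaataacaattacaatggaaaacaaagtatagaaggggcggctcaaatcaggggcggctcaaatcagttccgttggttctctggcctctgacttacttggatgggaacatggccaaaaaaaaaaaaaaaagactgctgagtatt
Olr1: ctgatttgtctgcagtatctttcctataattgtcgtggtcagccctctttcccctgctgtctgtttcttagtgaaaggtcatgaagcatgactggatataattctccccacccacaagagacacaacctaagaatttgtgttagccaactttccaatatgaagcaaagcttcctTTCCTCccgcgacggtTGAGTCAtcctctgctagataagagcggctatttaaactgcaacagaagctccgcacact
Both strands were searched for 6 motifs, which were the PU.1 core GAGGAA, the AP-1 site TGANTCA, the C/EBP site TTGCNNAA, the antioxidant core TGACNNNGC, the interferon element GAAANNGAA and the NF-kB site GGANTTTCC. The Marco window held 1 PU.1 core, which begins 146 bases before the start. Olr1 held 1 AP-1 site at 60 bases and 1 PU.1 core, on the other strand, at 76 bases before the start, and these did not overlap. The Cd36 window held none of these letters. For Mrc1, 3 PU.1 cores were found, at 180, 167 and 35 bases before the start, Stab1 held 1 at 30 bases and Cd163 held none of the 6 motifs. Of all 32851 RefSeq windows of this length, 23.3% held the PU.1 core and 6.75% the AP-1 site. The other shares were 10.2% for the antioxidant core, 9.56% for C/EBP, 7.13% for the interferon element and 1.07% for NF-kB. These matches describe the letters of the windows and not sites of binding.

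To compare receptor transcription between the genotypes, each gene was tested with limma on log2(FPKM + 1) over 8882 genes. None of the 8 tested receptor genes passed an adjusted p of 0.05, whereas 24.2% of all tested genes did and 13.8% were called lower in PGRN KO. Cd36 and Olr1 had an unadjusted p under 0.05, which is 2 of 8 beside 39.1% of all genes. With limma voom on recovered fragments, 0 of 8 passed, beside 25.5% of all genes. The 3 genes whose groups did not overlap, Olr1, Cd36 and Mrc1, were all lower in PGRN KO, while 48.8% of all tested genes had groups that did not overlap. The median log2 fold change of the 8 genes was -0.15, beside -0.03 for all tested genes. Without PGRN KO replicate 6 these medians were -0.05 and -0.04. In both fits the median of the 8 genes lay midway between Mrc1 and Stab1, and its shift came mainly from Mrc1 (-0.29 and then -0.13). Cd36 and Olr1 also moved towards 0 (to -0.25 and -0.23), whereas Marco moved from -0.41 to -0.66. Without PGRN KO replicate 6, Marco, Cd36 and Olr1 passed, all lower in PGRN KO, which is 3 of 8. In that comparison 41.3% of all genes passed and 25.1% were lower.

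The order of the levels, from Olr1 down to Cd163, was the same in both genotypes. Olr1 made up 43.2% of the summed FPKM of the 9 genes in WT and 39.6% in PGRN KO, and Cd36 made up 28.0% and 27.2%. Neighbours in this order did not overlap in either genotype, except that the libraries of Scarb1 and Stab1 overlapped in both. Together the 9 receptor genes summed to 462, 481 and 436 FPKM in WT and to 399, 394 and 340 FPKM in PGRN KO. Every PGRN KO sum thus lay below every WT sum, while 48.8% of single tested genes had groups that did not overlap, in either direction. Most of the sum came from Olr1 and Cd36, neither of which passed. Of the other genes, Marco, Mrc1 and Cd163 had lower means in PGRN KO, Scarf1 and Scarb1 had higher ones, and Msr1 and Stab1 hardly differed.

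**Figure D1:**
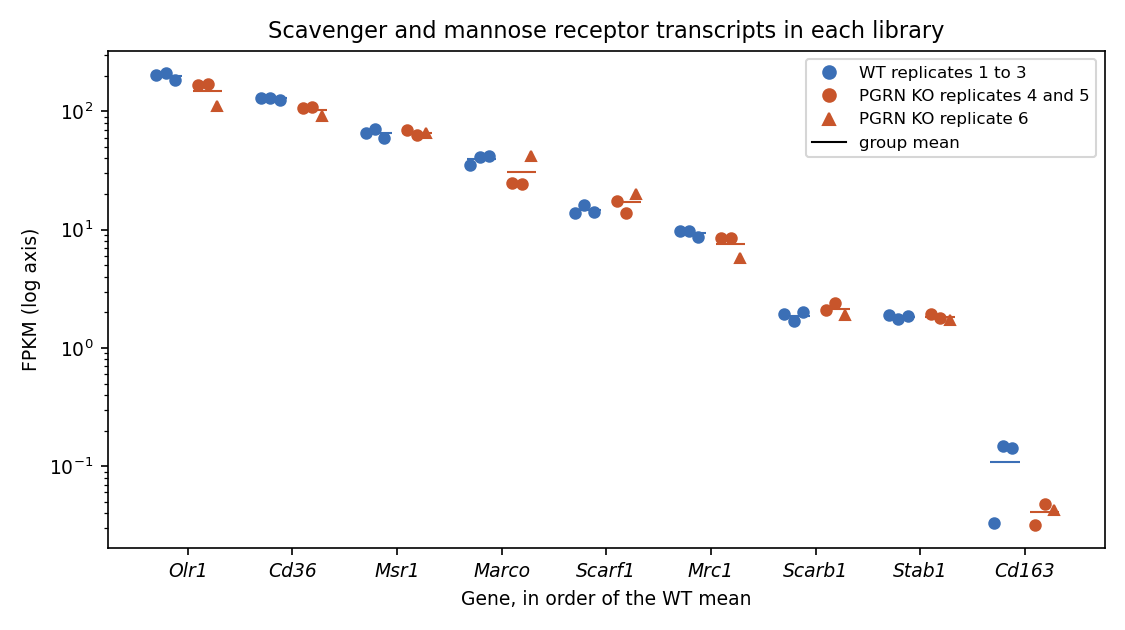
FPKM of the 9 receptor genes (log axis) in each WT and PGRN KO library, with 1 point per library and bars at the group means. Olr1 and Cd36 were the most abundant and Cd163 lay far below the others, and the 3 PGRN KO points lay below the 3 WT points for Olr1, Cd36 and Mrc1.

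Of the class A receptors, which bind modified lipoproteins, polyanions and microbial surfaces, Marco was low in PGRN KO replicates 4 and 5 and not in replicate 6. The gene (ENSMUSG00000026390, chr1:120474538-120505024, GRCm38 as for all genes here, gene model of 1925 bases) was at 35.4, 41.2 and 42.1 FPKM in WT replicates 1 to 3 and at 25.0, 24.4 and 42.1 FPKM in replicates 4 to 6 of PGRN KO. Of these, replicates 4 and 5 were below every WT library, whereas replicate 6 lay just above the highest WT value. The means were 39.6 ± 3.63 (WT) and 30.5 ± 10.1 FPKM (PGRN KO) (SD, n = 3 each), with a log2 fold change of -0.41 ± 0.21 (SE, 95% CI -0.90 to 0.09, limma adjusted p = 0.195). Without PGRN KO replicate 6 it was -0.66 ± 0.08 (95% CI -0.86 to -0.45, limma adjusted p = 0.00244), since the other PGRN KO libraries averaged 62.4% of WT. As a short gene, Marco lay where the length curve of PGRN KO replicate 6 was high. That curve stood at 0.23 at the length of Marco, and Marco deviated there by 0.29 from its mean over the 6 libraries. It deviated by 0.26 and 0.29 in WT replicates 2 and 3 too, where the curves stood at -0.03 and -0.04. After each library was corrected for gene length, the corrected log2 values were 5.24, 5.43 and 5.46 in WT and 4.74, 4.73 and 5.20 in PGRN KO. The groups then no longer overlapped, although replicate 6 stayed above the other PGRN KO libraries. The log2 fold change was -0.49 (limma adjusted p = 0.0367). Marco was the only one of the 8 genes to pass with this correction, beside 31.7% of all genes.

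Msr1, the other class A receptor (ENSMUSG00000025044, chr8:39581685-39642673), was at 65.6, 71.0 and 59.1 FPKM in WT and at 69.1, 63.6 and 65.4 FPKM in PGRN KO. The PGRN KO values all lay within the range of the WT values. The log2 fold change was 0.02 ± 0.10 (SE, 95% CI -0.21 to 0.25, limma adjusted p = 0.892), an interval that spans 0.863- to 1.19-fold on the FPKM + 1 scale, and it was 0.03 ± 0.09 without PGRN KO replicate 6 (adjusted p = 0.827). The ratio of Msr1 to Marco was 1.85, 1.72 and 1.40 in WT and 2.77, 2.60 and 1.55 in PGRN KO. It was higher than in any WT library in PGRN KO replicates 4 and 5 but not in replicate 6. These ratios were not corrected for gene length. The length curve of replicate 6 stood at -0.14 for Msr1 and at 0.23 for Marco.

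Class B receptors bind oxidised lipids, long-chain fatty acids and lipoproteins. Cd36 (ENSMUSG00000002944, chr5:17781690-17888801), which also takes part in the sensing of fungal beta-glucan, was at 131, 130 and 125 FPKM in WT and at 107, 110 and 91.2 FPKM in PGRN KO. All PGRN KO libraries lay below all WT libraries, with replicate 6 the lowest (exact two-sided permutation p = 0.1, the smallest that 3 against 3 allows). The means were 129 ± 3.09 (WT) and 103 ± 9.91 FPKM (PGRN KO) (SD, n = 3 each), with a log2 fold change of -0.33 ± 0.10 (SE, 95% CI -0.57 to -0.09), and the limma adjusted p was 0.0553. Without PGRN KO replicate 6 the log2 fold change was -0.25 ± 0.05 (95% CI -0.36 to -0.13, limma adjusted p = 0.00964), a mean of 84.2% of WT. The difference was thus smaller and the spread narrower without that library. The length curve of PGRN KO replicate 6 was near 0 (0.06) at the length of Cd36. Length correction left its log2 fold change at -0.33 (limma adjusted p = 0.0505), and with the same correction and without PGRN KO replicate 6 both Cd36 (adjusted p = 0.0125) and Marco passed, beside 41.3% of all genes.

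Scarb1, the receptor for high-density lipoprotein (ENSMUSG00000037936, chr5:125277087-125341094), was at 1.95, 1.69 and 2.00 FPKM in WT and at 2.11, 2.40 and 1.89 FPKM in PGRN KO. The groups overlapped through PGRN KO replicate 6, and the log2 fold change was 0.12 ± 0.10 (SE, 95% CI -0.13 to 0.37, limma adjusted p = 0.426). Without that library it was 0.18 ± 0.09 (95% CI -0.04 to 0.40, adjusted p = 0.168). At the length of Scarb1 the length curve of PGRN KO replicate 6 stood at -0.25. After length correction the log2 values were 1.48, 1.35 and 1.54 in WT and 1.61, 1.75 and 1.78 in PGRN KO. The groups then no longer overlapped, PGRN KO being higher. Each curve was fitted over genes of all levels, and its fit to genes as low as Scarb1 was not tested. Scarb1 still did not pass (log2 fold change 0.25, 95% CI 0.03 to 0.48, limma adjusted p = 0.0823). The ratio of Cd36 to Scarb1 was 67.0, 77.1 and 62.5 in WT and 50.7, 45.5 and 48.4 in PGRN KO. This ratio was lower in every PGRN KO library than in any WT library, replicate 6 included. Cd36 alone already separated the groups in this way, and the share of other gene pairs that do so was not computed.

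Olr1, which encodes the lectin-like receptor for oxidised low-density lipoprotein LOX-1 (ENSMUSG00000030162, chr6:129485244-129507165), was the most abundant of the 9 genes. It was at 203, 210 and 183 FPKM in WT and at 168, 169 and 111 FPKM in PGRN KO. The groups did not overlap, and PGRN KO replicate 6 was far below the other PGRN KO libraries, at 66.0% of their mean. The means were 198 ± 13.9 (WT) and 150 ± 33.1 FPKM (PGRN KO), and the log2 fold change was -0.43 ± 0.18 (SE, 95% CI -0.84 to -0.02, limma adjusted p = 0.118). Without PGRN KO replicate 6 it was -0.23 ± 0.07 (95% CI -0.40 to -0.06, limma adjusted p = 0.0402), with the remaining PGRN KO libraries at 84.9% of WT. The length curve of replicate 6 stood at 0.06 at the length of Olr1, whereas the gene deviated by -0.61 there. With both the correction and the omission the limma adjusted p of Olr1 was 0.0536. The ratio of Olr1 to Cd36 was 1.55, 1.61 and 1.46 in WT, 1.57 and 1.55 in PGRN KO replicates 4 and 5 and 1.22 in replicate 6.

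**Figure D2:**
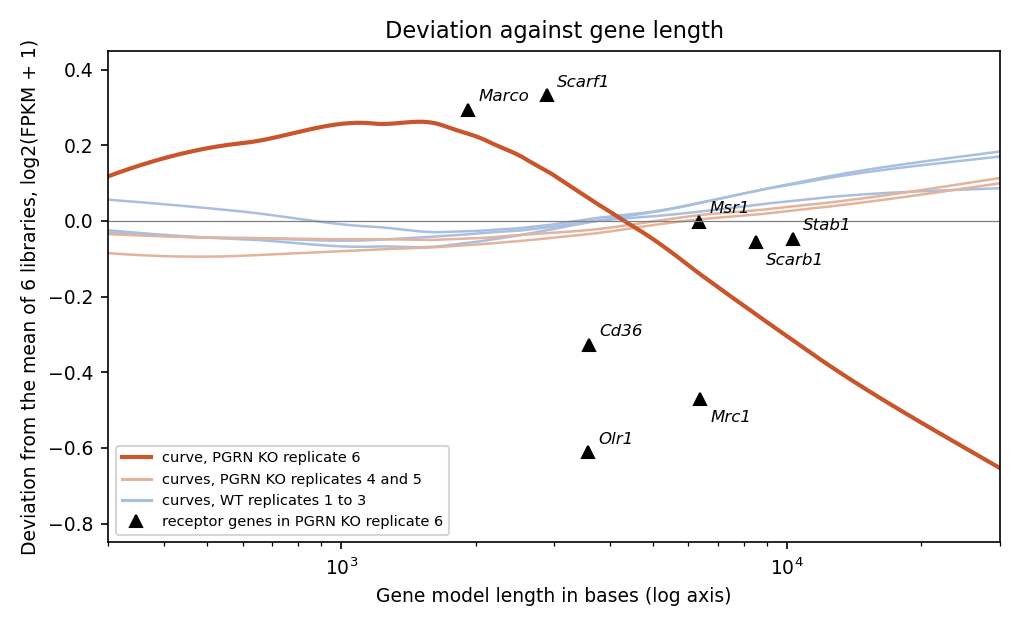
Smoothed deviation of tested genes from their mean over the 6 libraries on the log2(FPKM + 1) scale, against gene model length in bases (log axis), 1 curve per library, with triangles for the 8 tested receptor genes in PGRN KO replicate 6. The curve of replicate 6 fell with length, the point of Marco was at 0.29 against 0.23 for the curve, and Olr1 lay far below it (-0.61 against 0.06).

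Mrc1, the mannose receptor (ENSMUSG00000026712, chr2:14229392-14332057), which binds mannose-rich glycans such as those of the yeast wall, was at 9.75, 9.70 and 8.65 FPKM in WT and at 8.46, 8.50 and 5.76 FPKM in PGRN KO. The groups did not overlap, but PGRN KO replicates 4 and 5 lay close below the lowest WT library. With means of 9.36 ± 0.622 (WT) and 7.57 ± 1.57 FPKM (PGRN KO), the log2 fold change was -0.29 ± 0.15 (SE, 95% CI -0.64 to 0.06, limma adjusted p = 0.193), and without PGRN KO replicate 6 it was -0.13 ± 0.07 (95% CI -0.30 to 0.04, adjusted p = 0.189). Lyve1, which was counted here among the endothelial markers, was higher in PGRN KO, with means of 4.28 FPKM (WT) and 8.79 FPKM (PGRN KO). Which cells held the Lyve1 and Mrc1 transcripts was not tested.

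Scarf1, a receptor of class F that binds acetylated lipoprotein and takes part in the recognition of fungi (ENSMUSG00000038188, chr11:75513540-75526582), was at 13.8, 16.1 and 14.2 FPKM in WT and at 17.6, 13.9 and 20.2 FPKM in PGRN KO. PGRN KO replicates 4 and 6 were above every WT library and replicate 5 lay among the WT libraries. The log2 fold change was 0.20 ± 0.14 (SE, 95% CI -0.13 to 0.54, limma adjusted p = 0.331), and 0.09 ± 0.11 without PGRN KO replicate 6 (95% CI -0.19 to 0.36, adjusted p = 0.573). Stab1, a class H receptor that clears hyaluronan and altered proteins (ENSMUSG00000042286, chr14:31139013-31168641), was at 1.90, 1.75 and 1.85 FPKM in WT and at 1.94, 1.80 and 1.74 FPKM in PGRN KO. The values overlapped almost fully, with a 95% CI of 0.864- to 1.15-fold on the FPKM + 1 scale (limma adjusted p = 0.975), and the log2 fold change without PGRN KO replicate 6 was 0.02 ± 0.08 (adjusted p = 0.874). The exons of Stab1 overlap those of Nt5dc2 on the opposite strand by 112 bases, and Nt5dc2 had a mean of 0.52 FPKM.

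Cd163, the class I receptor for haemoglobin bound to haptoglobin (ENSMUSG00000008845, chr6:124304656-124330527), was near the limit of detection and was left out of the main test. It was at 0.0328, 0.149 and 0.142 FPKM in WT and at 0.0317, 0.0484 and 0.0424 FPKM in PGRN KO, from 3, 12 and 14 fragments and from 3, 5 and 4 fragments. WT replicate 1 was at the level of the PGRN KO libraries, so the groups overlapped (exact two-sided permutation p = 0.3). With no filter on low values, its log2 fold change was -0.09 (95% CI -0.20 to 0.02, limma adjusted p = 0.346). Over all libraries 29 fragments were counted in WT and 12 in PGRN KO. Scaled to the library sizes, this was a ratio of 0.383 (95% exact interval 0.178 to 0.774, counting error only). The spread between the WT libraries, a coefficient of variation of 60.3%, is not part of that interval. The tested receptor genes had between 212 and 12120 fragments per library.

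**Figure D3:**
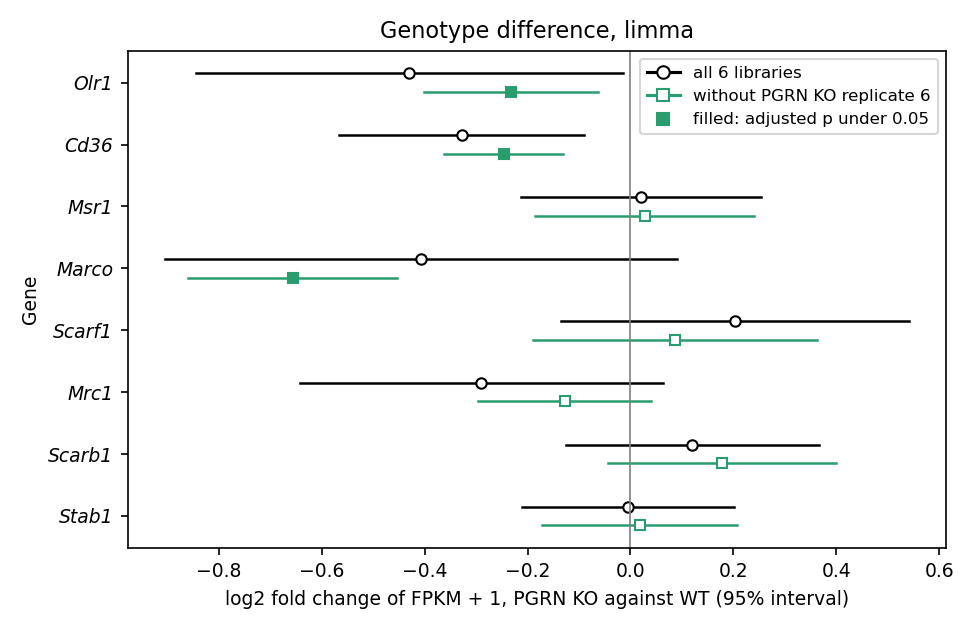
Log2 fold change of FPKM + 1 in PGRN KO against WT for the 8 tested receptor genes, with 95% confidence intervals, over all 6 libraries and without PGRN KO replicate 6. Intervals narrowed without that library, and those of Marco (-0.86 to -0.45), Cd36 (-0.36 to -0.13) and Olr1 (-0.40 to -0.06) lay below 0.

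Genes related to these receptors were counted in 7 lists by the same test and threshold, under which 24.2% of all genes passed. Without PGRN KO replicate 6, 41.3% of all genes passed and 25.1% were lower. Leaving out 1 WT library cut all calls from 2151 to 713, 855 or 883 of 8882. Leaving out PGRN KO replicate 4 or 5 cut them to 1390 or 1601. List counts and single calls under these settings stand beside these totals, which changed for all genes. Of 17 other scavenger receptors, 6 were tested and 2 rose, also without PGRN KO replicate 6, with a list median of 0.09. Cd5l, a secreted scavenger receptor cysteine-rich protein of tissue macrophages, was at 7.02, 7.41 and 7.21 FPKM in WT and at 20.2, 18.7 and 29.4 FPKM in PGRN KO (1.51 ± 0.16 on the log2 scale, limma adjusted p = 0.0022). Cd5l is also one of the large peritoneal macrophage markers that were higher in PGRN KO. Scarb2, a lysosomal class B protein that carries glucocerebrosidase, rose from 16.1 ± 0.922 to 25.2 ± 3.38 FPKM (0.61 ± 0.12, adjusted p = 0.0123), a call that was lost without WT replicate 1 or WT replicate 3 (adjusted p up to 0.0617). Of the class B genes, Cd36 and Scarb1 did not pass and Scarb2 did.

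Among 14 endocytic lectins, 7 were tested, 1 rose and 2 fell (median -0.16), and 2 were higher and 3 lower without PGRN KO replicate 6. Clec4a2, an inhibitory C-type lectin, fell from 4.64 ± 0.202 to 1.06 ± 0.232 FPKM (-1.46 ± 0.11 on the log2 scale, limma adjusted p = 0.00119). Clec10a, the galactose-type lectin 1, fell from 2.65 ± 0.171 to 0.958 ± 0.105 FPKM (adjusted p = 0.00201), while its near copy Mgl2 rose from 5.49 ± 0.122 to 9.81 ± 1.85 FPKM (adjusted p = 0.0102, and 0.0528 without WT replicate 1). The 31-base words of the Clec10a exons were shared with Mgl2 to 13.7%, and those of Mgl2 with Clec10a to 19.3%, so the division of fragments between these genes is uncertain. Of the Clec4a2 words, 10.9% were shared with other genes, of which Clec4a4 shared the most (4.96%). Clec4n, which encodes dectin-2, a receptor for fungal mannan, averaged 102 ± 2.82 FPKM (WT) and 91.2 ± 13.5 FPKM (PGRN KO) (adjusted p = 0.348). It passed without PGRN KO replicate 6 (log2 fold change -0.28, adjusted p = 0.00772).

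Genes of lipoprotein and cholesterol handling, into which the class B and class E receptors feed, moved in both directions, with 3 of 17 tested higher and 4 lower (median -0.21). The lower genes numbered 7 without PGRN KO replicate 6 and 1 without any 1 of the WT libraries or without PGRN KO replicate 4. Apoe, the apolipoprotein that macrophages secrete with cholesterol, was at 351, 366 and 396 FPKM in WT and at 919, 882 and 1676 FPKM in PGRN KO, with PGRN KO replicate 6 far above the rest (1.58 ± 0.25, limma adjusted p = 0.00661). Abcg1, which exports cholesterol, rose from 1.13 ± 0.181 to 2.94 ± 0.293 FPKM (adjusted p = 0.00322), and Fabp5, which binds fatty acids in the cytosol, rose from 70.6 ± 1.05 to 109 ± 17.2 FPKM (adjusted p = 0.0154). Lpl, the lipase of triglyceride-rich lipoproteins, fell from 20.9 ± 1.40 to 8.91 ± 0.632 FPKM (-1.14 ± 0.09, adjusted p = 0.00119). Fabp4, the fatty acid binding protein shared with adipocytes, fell from 17.4 ± 1.40 to 10.7 ± 2.35 FPKM (adjusted p = 0.0208), and Npc1, which moves cholesterol out of lysosomes, fell from 37.1 ± 0.855 to 23.8 ± 5.84 FPKM (adjusted p = 0.0394). The other gene of the list that fell was Soat1, the cholesterol esterifying enzyme. The calls of Fabp4, Npc1, Soat1 and Fabp5 were each lost without any 1 of the 3 WT libraries, those of Fabp4, Npc1 and Soat1 also without PGRN KO replicate 4, and that of Fabp4 without PGRN KO replicate 5 (adjusted p up to 0.0877 for Fabp4, 0.123 for Npc1 and 0.0697 for Fabp5). Npc1 also overlaps Rmc1 on the opposite strand, and did not pass when the libraries were scaled otherwise.

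Transcription factors and nuclear receptors that act on these receptor genes were counted as well, with 1 of 14 tested higher and 3 lower (median -0.31), and with 7 lower without PGRN KO replicate 6. Nfe2l2, the factor of the antioxidant response, was at 41.6, 42.4 and 38.3 FPKM in WT and at 24.3, 25.1 and 22.9 FPKM in PGRN KO (-0.74 ± 0.09, limma adjusted p = 0.00286), and Ppard, a nuclear receptor for fatty acids, fell from 13.7 ± 0.897 to 10.3 ± 0.891 FPKM (adjusted p = 0.0330). Maf, a basic leucine zipper factor, rose from 0.942 ± 0.228 to 1.68 ± 0.165 FPKM (adjusted p = 0.0311). Ppard did not pass without any 1 of the 5 libraries other than PGRN KO replicate 6 (adjusted p up to 0.131), nor under the other scalings, and Maf did not pass without WT replicate 1 or 2 or PGRN KO replicate 4 or 5 (up to 0.111). Spi1, which encodes PU.1, was at 75.0 ± 5.90 and 55.0 ± 12.8 FPKM and did not pass (adjusted p = 0.0834), although it did without PGRN KO replicate 6 (-0.64, adjusted p = 0.00246).

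Of 14 alternative activation genes, with which Mrc1 is commonly listed, 3 rose and 6 fell (median -0.23). Without PGRN KO replicate 6, 3 were higher and 8 lower, and without WT replicate 1 only 1 was higher and 4 lower. Arg1, the enzyme that splits arginine into ornithine and urea, was at 205, 175 and 233 FPKM in WT and at 89.6, 106 and 114 FPKM in PGRN KO (-0.97 ± 0.14, limma adjusted p = 0.00559), and Egr2, a transcription factor, fell from 118 ± 3.90 to 66.7 ± 6.38 FPKM (adjusted p = 0.00324). Chil3, a chitinase-like protein, rose from 1328 ± 58.8 to 2343 ± 201 FPKM (adjusted p = 0.00505), but 28.9% of the 31-base words of its exons are shared with Chil4. Ccl24, an eosinophil-attracting chemokine, rose from 2.04 ± 0.348 to 3.51 ± 0.814 FPKM (adjusted p = 0.0396), a call lost without any WT library or PGRN KO replicate 5 (up to 0.141). Clec10a and Mgl2 belong to this list too. Mrc1 itself did not pass.

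Beside Cd163, 10 genes of haemoglobin and haem handling were examined, and 1 of 8 tested rose and 2 fell (median 0.01). Without PGRN KO replicate 6, 2 were higher and 4 lower, and without any 1 of the WT libraries 1 was lower. Hmox1, which degrades haem, was at 642, 656 and 639 FPKM in WT and at 327, 370 and 421 FPKM in PGRN KO (-0.80 ± 0.12, limma adjusted p = 0.00565). Hp, which encodes haptoglobin, fell from 213 ± 7.61 to 117 ± 32.7 FPKM (adjusted p = 0.0159, and up to 0.0683 without a WT library), and Slc48a1, a haem transporter of the lysosome, rose from 16.4 ± 1.71 to 27.7 ± 3.30 FPKM (adjusted p = 0.00843). Of 14 co-receptors and signalling partners, 1 of 13 tested rose and none fell (median -0.07), whereas 4 were lower without PGRN KO replicate 6. That gene was Mertk, a receptor tyrosine kinase for dying cells, which went from 1.41 ± 0.229 to 3.24 ± 0.514 FPKM (0.81 ± 0.13, adjusted p = 0.0064).

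**Figure D4:**
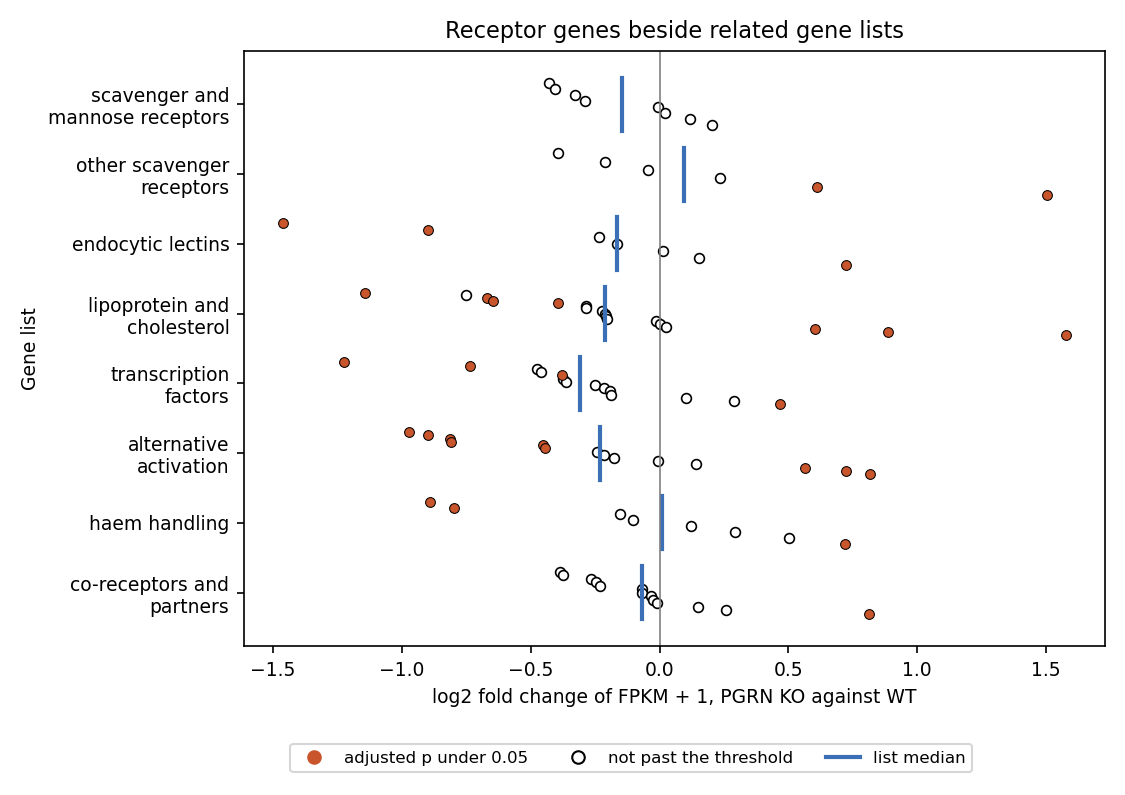
Log2 fold change of FPKM + 1 in PGRN KO against WT for each tested gene of the receptor group and of 7 related lists, with filled points for genes past an adjusted p of 0.05 and vertical bars at list medians. The receptor genes lay between -0.43 and 0.20 with no filled point, whereas filled points in both directions were seen in 5 of the 7 related lists.

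Other settings of the test called other numbers of receptor genes. With sample quality weights, which gave PGRN KO replicate 6 a weight of 0.09, Marco, Cd36 and Olr1 passed, beside 47.6% of all genes. When only genes with a mean of at least 5 FPKM were tested, Cd36 passed (limma adjusted p = 0.0477), which was 1 of 6 receptor genes beside 30.5% of all genes.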

How the data were processed

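Per the submitters' processing notes, reads were handled with CASAVA, HISAT2 2.0.5, featureCounts 1.5.0-p3 and DESeq2 1.20.0 on mm10/GRCm38, whereas the methods of the study name HISAT and HTSeq. The authors deposited FPKM per gene and library, and the sources used here do not say if counting was stranded. FPKM times gene length gave whole fragments for 100.0% of values above 0 (tolerance 0.001 of a fragment). The size by which the authors divided was 0.925 to 1.09 times the sum of these fragments, so the values were already scaled between libraries. Coordinates are those of the deposited table, and all 9 receptor genes had the same ones in the GRCm38 annotation.

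Genes with a mean of at least 1 FPKM over the 6 libraries (8882 of 54532) were tested as log2(FPKM + 1) with limma 3.58.1 in R 4.3.3 (empirical Bayes with a mean-variance trend, two-sided, no covariates). The Benjamini-Hochberg adjustment ran over all tested genes with a threshold of 0.05, and fold changes of low genes are understated on this scale. The procedure was also run on simulated fragments. These had no length trend and no deviating library, so that run says nothing about the effect of PGRN KO replicate 6. The length correction subtracted from each library a loess curve (span 0.5) of the deviation from the gene mean against log gene length. The same curve served genes of all levels, and its fit to low genes such as Scarb1 and Stab1 was not tested. voom on the recovered fragments called 2267 genes. Without molecular identifiers fragments are not independent molecules, so intervals on fragments cover counting error only.

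The receptor genes and all lists were chosen with earlier results of these data known. Text names all receptor genes, Grn, Clec4n and, per list, the 3 largest changes past the threshold in each direction. Genes most like a receptor gene that passed were to be named, but none passed. A gene that this rule picked is not reported here, although it is counted in the totals. Soat1, Spi1 and the upstream windows shown were chosen after values were seen. RefSeq windows were found for 6 of the 9 receptor genes, and Msr1, Scarb1 and Scarf1 were not searched. Alternatives were another pseudocount, no filter, a mean of at least 5 FPKM, 3 other scalings, no variance trend, sample quality weights, voom, length correction with and without PGRN KO replicate 6, and leaving out each library.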

Additional observations from a re-analysis of the deposited data

How the results depend on the processing

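Of 134 values of receptor genes under other settings, 113 kept their direction and side of the threshold, 10 passed the threshold that the reported value had missed and 11 reversed. The number of receptor genes past the threshold was 0 as reported, 1 with a mean of at least 5 FPKM, 1 with length correction, 3 with sample quality weights, 2 with length correction without PGRN KO replicate 6 and 0 to 3 when 1 library was left out, and all of these were lower in PGRN KO. The reversals were in Msr1 and Stab1, whose log2 fold changes were 0.02 and -0.00. Msr1 was -0.0470 without WT replicate 3 and negative also without PGRN KO replicate 4, and 0.0832 at most when 1 library was left out. Stab1 was 0.0403 on the TPM scale, 0.0601 with the sum of fragments, 0.00803 with weights, 0.161 with length correction, 0.0676 when PGRN KO replicate 6 was also left out and -0.0325 to 0.0179 when 1 library was left out. The cause was not tested. Marco and Cd36 passed in 4 of 17 alternatives each and Olr1 in 2 of 17, always without or with little weight on PGRN KO replicate 6, with length correction (Marco) or with a mean of at least 5 FPKM (Cd36). Adjusted p ranged from 0.00199 to 0.399 for Marco, 0.00389 to 0.239 for Cd36 and 0.0201 to 0.279 for Olr1. Over all genes 2151 were called, 921 higher and 1230 lower. These were 1366, 603 and 763 with no filter, 4225, 1757 and 2468 with weights, 3664, 1640 and 2024 with length correction without PGRN KO replicate 6, and 713 to 3668, 331 to 1438 and 382 to 2230 when 1 library was left out. A mean of at least 5 FPKM left 529 higher. The split was 911 higher and 593 lower on the TPM scale and 1179 and 695 with the sum of fragments, which moved the median of all genes from -0.03 to 0.01 and 0.05. Of 23 related genes past the threshold that the rule for named genes picked, 14 passed in every alternative and 9 did not. Of 238 counts for the related lists, 59 moved by over 1.5 times. No paired analysis was possible because no replicate number occurs in both genotypes. Cd163, with 3 to 14 fragments per library, was limited by depth.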
